A study of Homo sapiens with 8 samples.

Results

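MAP3K14 encodes NF-kappaB-inducing kinase (NIK), and it was chosen for how its reads were divided among its isoforms in clean air and formaldehyde libraries. All rows with the Ensembl identifier of this gene, ENSG00000006062, were taken, which gave 7 of the 206601 transcript rows and 1 of the 58735 genes in each file. The near full-length isoforms ENST00000344686 and ENST00000648527 held between 60.9% and 96.5% of the gene's reads in every library, and formaldehyde went with opposite shifts of their shares in input and in immunoprecipitated RNA. These shares by treatment and fraction are the values that chose the gene, so they are described here with no test.

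NIK is the kinase at the head of the noncanonical NF-kappaB pathway. In resting cells a complex of TRAF2, TRAF3 and the cIAP ubiquitin ligases keeps NIK protein low by steady degradation. When receptors such as the lymphotoxin beta receptor release it from this complex, NIK phosphorylates IKK alpha, p100 is processed to p52, and p52 acts with RelB. Much of this control is on the protein, which was not measured here.

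BEAS-2B cells, a line of virus-immortalised human bronchial epithelial cells, were kept at an air-liquid interface and exposed for 2 h to humidified clean air (CA) or to air with 1 ppm formaldehyde (FA), both with added CO2, and then recovered for 6 h. RNA was sequenced as input (IN) and after immunoprecipitation (IP) with an antibody to 8-oxo-7,8-dihydroguanosine (8-oxoG), an oxidised form of guanosine. The 4 groups CA_IN, FA_IN, CA_IP and FA_IP held 2 libraries each, numbered 1 and 3 and described as biological replicates, and input and immunoprecipitated RNA of the same treatment and number were portions of the same RNA pool. The labels give 2 different clone names for the antibody, and the libraries all came from 1 cell line.

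The total expected count was 26152651 to 45144392 in the input libraries and 16883500 to 23658012 in the immunoprecipitated libraries. All 6 epithelial markers on the list, such as EPCAM at 10.9 to 23.7 TPM (a level per length, scaled to the same total in each library), were present in all 8 libraries, together with the mesenchymal gene VIM at 173 to 476 TPM. The leukocyte gene PTPRC had at most 2 counts in a library and was at 0 in at least 1 of them. The endothelial gene PECAM1 had 9 to 26 counts in a library, at 0.0195 to 0.302 TPM.

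MAP3K14 lies on the minus strand of GRCh38 at chr17:45263119-45317029 (GENCODE 44). ENST00000344686 is annotated as protein coding with 16 exons from chr17:45317020, the distal start. The annotated long isoform ENST00000376926 has 15 exons from chr17:45290976, an inner start 26044 bases further into the gene. Both carry the same 15 coding segments with 2841 coding bases, and 13 of their exons are the same. They differ by 70 exonic bases found only in ENST00000344686 and 211 found only in ENST00000376926. ENST00000648527, with a length of 4567 bases in the files against 4430 for ENST00000344686, is not in GENCODE 44, and its exons were not analysed here. ENST00000640087 is likewise not in that annotation, and it had the same length, 4583 bases, and the same count as ENST00000376926 in all 8 libraries.

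**Figure D1:**
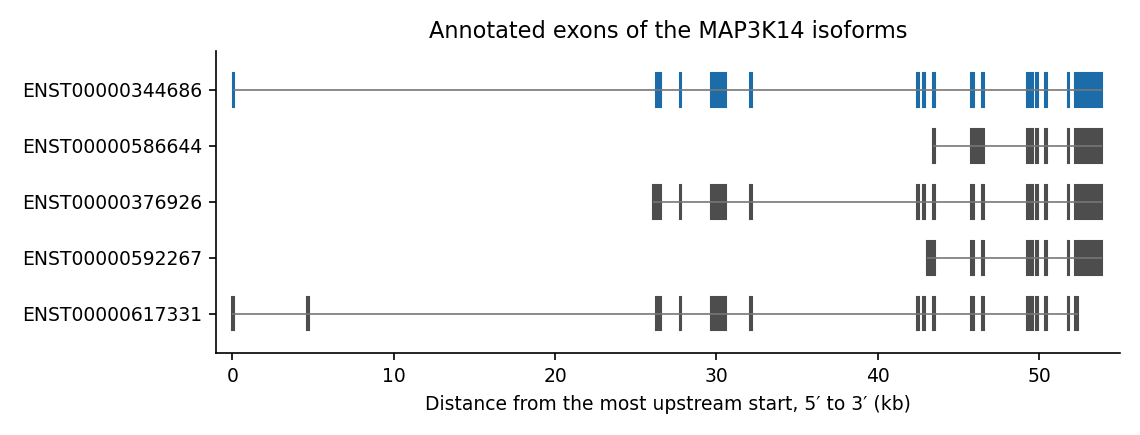
Exons (boxes) and introns (lines) of the 5 MAP3K14 isoforms in the files that GENCODE 44 holds, against the distance in kb from the most upstream start, drawn 5′ to 3′ and ordered by mean expected count. ENST00000344686 (blue) and ENST00000376926 share nearly all exons and differ at the first exon, and ENST00000617331 is drawn with the 3087 bases of GENCODE 44, not with the 537 bases on which its reads were counted.

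The genomic sequence just upstream of each start is shown because the first exon is where the annotated long isoforms part. Each window holds 250 bases on the minus strand of GRCh38, the distal one at chr17:45317021-45317270 (from RefSeq) and the inner one at chr17:45290977-45291226. Capitals mark the GC box GGGCGG on either strand.
distal start: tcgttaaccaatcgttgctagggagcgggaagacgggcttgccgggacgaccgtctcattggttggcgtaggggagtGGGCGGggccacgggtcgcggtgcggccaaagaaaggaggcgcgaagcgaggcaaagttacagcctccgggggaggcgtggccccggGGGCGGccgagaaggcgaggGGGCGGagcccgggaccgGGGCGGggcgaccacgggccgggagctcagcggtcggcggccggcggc
inner start: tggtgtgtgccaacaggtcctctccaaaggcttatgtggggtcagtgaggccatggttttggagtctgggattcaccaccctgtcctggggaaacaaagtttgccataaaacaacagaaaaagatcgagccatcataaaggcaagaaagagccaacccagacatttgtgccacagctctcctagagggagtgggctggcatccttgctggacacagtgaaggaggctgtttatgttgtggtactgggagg
The distal window held 4 GC boxes and the inner window 0, and 42.6% of 35116 promoter windows of this length held at least 1. TATAAA, searched on both strands, had 0 matches in both windows, against 10.7% of all promoter windows with a match. The GC content was 73.6% in the distal and 51.2% in the inner window, and the median of all promoter windows was 58%.

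The coding sequence of both annotated long isoforms begins at the same place, chr17:45290716-45290745 on the minus strand, shown with the start codon in capitals.
coding start: ATGgcagtgatggaaatggcctgcccaggt
The retained-intron isoform ENST00000586644 starts within the gene and keeps intron 10 of ENST00000344686, which has 494 bases at chr17:45270564-45271057. Among the annotated isoforms in the files, its reads can be told from those of the spliced isoforms at this boundary. ENST00000680632, an annotated isoform that is not in the files, also reads through this boundary, in an exon at chr17:45270852-45271221. Reads through the boundary thus do not tell ENST00000586644 from ENST00000680632. The end of the shared exon is shown in lower case and the bases that follow it in capitals. The spliced form joins across chr17:45270549-45271072, and the retained form reads through chr17:45271043-45271072.
spliced: ccgctctgcctcaagATTGCCAGCGAGCCT
retained: ccgctctgcctcaagGTCGGTGACGGCACC

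Few stretches of read length belong to 1 annotated isoform alone, taking the isoforms in the files as GENCODE 44 gives them. Of the 4368 windows of 75 bases (the read length) in ENST00000344686, 69 (1.58%) occur in no other annotated isoform in the files. The same held for 209 of 4509 windows (4.64%) in ENST00000376926 and for 566 of 3192 (17.7%) in ENST00000586644. An expected count is the number of reads that RSEM, a maximum-likelihood estimator, assigned to an isoform, including its part of the reads that match several isoforms. ENST00000648527 and ENST00000640087 are not in GENCODE 44 and did not enter these window counts. How many windows tell ENST00000344686 from ENST00000648527, or ENST00000376926 from ENST00000640087, was not analysed here. ENST00000640087 had the same length and counts as ENST00000376926, so fewer windows may tell ENST00000376926 apart. The part of this assignment in the isoform shares was not tested.

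ENST00000344686, the isoform from the distal start, had 179 and 94.5 expected counts in the CA_IN libraries and 185 and 211 in the FA_IN libraries. After immunoprecipitation it had 163 and 117 counts in CA_IP and 0 in both FA_IP libraries. The FA_IN libraries were above both CA_IN libraries, and the FA_IP libraries were the 2 at a count of 0. As CPM (the count scaled to the library total), its mean in FA_IN was 1.99 times that in CA_IN, with a range of 1.61 to 2.603 when 1 library was left out. With 3 counts per library put in place of 0, its mean in CA_IP was 43.7 times that in FA_IP. This floor takes no account of how shared reads were divided among isoforms, so folds that use it are not lower bounds.

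ENST00000648527 ran the other way. It had 151 and 118 expected counts in the CA_IN libraries and 0 in both FA_IN libraries. In immunoprecipitated RNA it had 31.6 counts in each of the CA_IP libraries and 118 and 168 in the FA_IP libraries. The groups of the 2 treatments did not overlap in either fraction. As CPM, with 3 counts in place of 0, its mean was 32.6 times as high in CA_IN as in FA_IN. It was 4.64 times as high in FA_IP as in CA_IP (4.40 to 4.89 with 1 library left out).

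**Figure D2:**
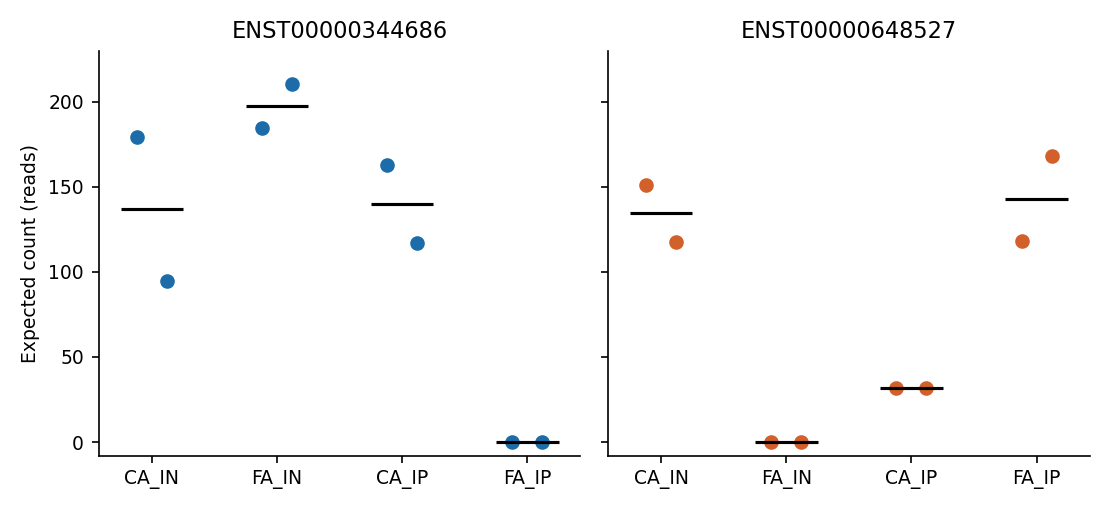
Expected count of the isoforms ENST00000344686 (left) and ENST00000648527 (right), one point per library and a line at the mean of each group of 2. ENST00000344686 is at 0 in both FA_IP libraries and ENST00000648527 at 0 in both FA_IN libraries.

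As a share of the gene's reads, ENST00000344686 was at 34.2% ± 9.99 (SD, n = 2) in CA_IN and 78.5% ± 9.09 in FA_IN. In immunoprecipitated RNA it was at 59.8% ± 1.69 in CA_IP and 0% in FA_IP. The share of ENST00000648527 was 34.3% ± 0.706 in CA_IN and 0% in FA_IN, against 13.9% ± 2.81 in CA_IP and 90.5% ± 8.58 in FA_IP. The first isoform was thus 44.3 percentage points higher with formaldehyde in input RNA and 59.8 points lower in immunoprecipitated RNA (a difference of -59.8), and the second differed by -34.3 and 76.6 points. The sum of the 2 isoforms was above 0 in every library, with 331 and 212 counts for CA_IN, 185 and 211 for FA_IN, 194 and 149 for CA_IP, and 118 and 168 for FA_IP.

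Within formaldehyde the long isoforms also changed places between input and immunoprecipitated RNA. With 3 counts in place of 0, ENST00000344686 was 42.1 times as high in FA_IN as in FA_IP. By the same rule ENST00000648527 was 71.6 times as high in FA_IP as in FA_IN. Within clean air both isoforms had counts above 0 in all 4 libraries, with about equal mean shares in CA_IN and the higher share for ENST00000344686 in CA_IP. There ENST00000344686 was 2.07 times as high in CA_IP as in CA_IN, and ENST00000648527 was 2.11 times as high in CA_IN as in CA_IP.

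**Figure D3:**
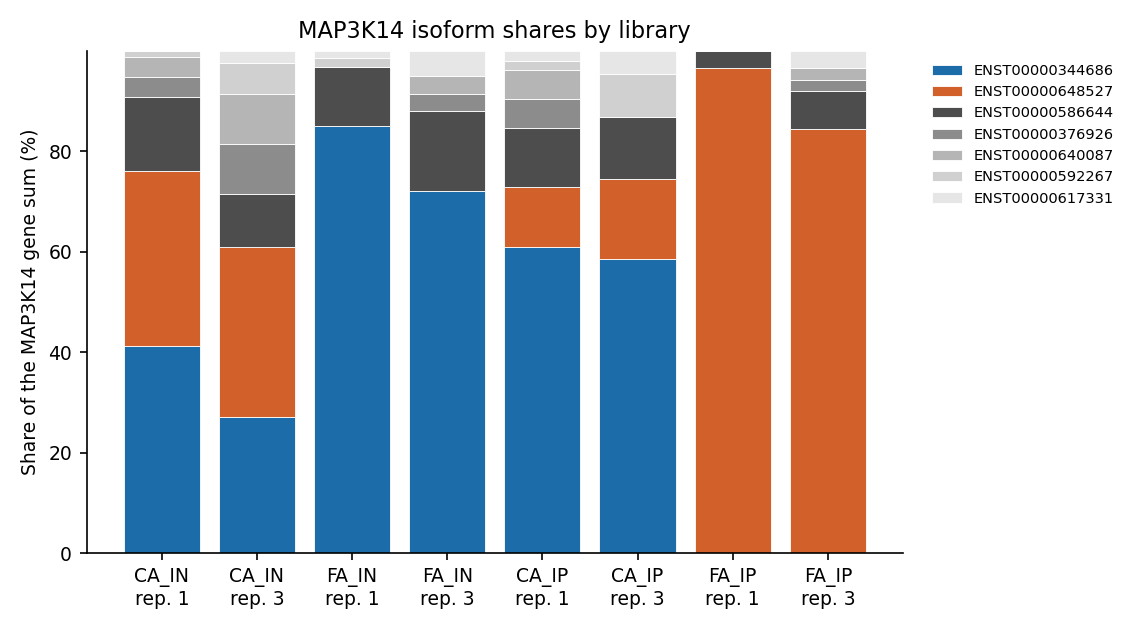
Share of each isoform in the MAP3K14 gene sum of expected counts, in percent, for each of the 8 libraries. ENST00000344686 (blue) takes most of the FA_IN bars and is absent from the FA_IP bars, where ENST00000648527 (orange) takes 84.4% and 96.5%.

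A change from at least 100 counts in both libraries of a group to 0 in both of another was rare among all transcripts in the directions given here. These are the directions in which a MAP3K14 isoform changed, and the others are not given. From CA_IN to FA_IN it was seen for 14 of 22040 transcripts (0.0635%), and from CA_IP to FA_IP for 9 of 16597 (0.0542%). From FA_IN to FA_IP it was seen for 14 of 18389 (0.0761%) and from FA_IP to FA_IN for 7 of 15549 (0.045%). Of the 10194 genes with a gene sum of at least 100 in all 8 libraries, 13 had such an isoform in input RNA, 9 in immunoprecipitated RNA and 1, MAP3K14, in both. MAP3K14 was chosen for this pattern, so nothing is read from its place in these counts. Libraries of the same group also disagreed, by a looser rule of 1 library against 1, whose rates cannot be set beside those above. Of the transcripts with at least 100 counts in 1 library of a group, 1.2% (CA_IN), 1.25% (FA_IN), 1.26% (CA_IP) and 1.41% (FA_IP) were at 0 in the other library.

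The other isoforms had lower mean expected counts over the 8 libraries. ENST00000586644, which keeps intron 10, was the only one with reads in all 8 libraries. Its input libraries gave 64.1 and 37.3 expected counts with clean air and 25.7 and 46.6 with formaldehyde. Its immunoprecipitated libraries gave 31.5 and 24.9 with clean air and 4.25 and 15.1 with formaldehyde. Its share of the gene sum was 12.7% ± 2.86 (SD, n = 2) for CA_IN, 13.9% ± 2.89 for FA_IN, 12.1% ± 0.468 for CA_IP and 5.52% ± 2.89 for FA_IP. The share thus differed between the treatments by less than the spread in input RNA, and both FA_IP libraries were below both CA_IP libraries in immunoprecipitated RNA.

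ENST00000376926, the annotated long isoform from the inner start, had 17.6 and 34.7 expected counts in the CA_IN libraries and 0 and 10.1 in the FA_IN libraries. The CA_IP libraries held 15.4 and 0 counts of it and the FA_IP libraries 0 and 4.56. ENST00000640087 had the same values. In every group but CA_IN, 1 of the 2 libraries was at 0. ENST00000592267, annotated as a retained-intron transcript, reached at most 21.1 counts and was at 0 in both FA_IP libraries, and ENST00000617331, with a length of 537 bases in the files, reached at most 14.9. By TPM, ENST00000617331 was at 0.257 in CA_IN replicate 3 and 0.885 in CA_IP replicate 3, against 0.215 and 0.853 for ENST00000344686. It was at 0 in CA_IN replicate 1 and FA_IP replicate 1. Its mean was 0.129 TPM in CA_IN and 0.311 in FA_IN, and these values enter the gene's TPM.

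The sum over the isoforms spanned a narrower range. In input RNA the gene sum was 435 and 348 expected counts with clean air and 217 and 292 with formaldehyde. In immunoprecipitated RNA it was 267 and 199.8 with clean air and 122 and 199 with formaldehyde. As CPM after the scaling of edgeR (TMM, the trimmed mean of M-values), the CA_IN libraries stood at 9.99 and 9.51, the FA_IN libraries at 9.03 and 8.44, the CA_IP libraries at 11.3 and 9.65 and the FA_IP libraries at 6.75 and 8.18. The groups ranked CA_IP (10.5 ± 1.16 CPM, SD, n = 2), CA_IN (9.75 ± 0.341), FA_IN (8.74 ± 0.412) and FA_IP (7.46 ± 1.01). CA_IP and CA_IN overlapped, and the other neighbours in this order did not. On the TPM scale MAP3K14 was higher than between 34.4% and 46.1% of the tested genes, depending on the library.

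**Figure D4:**
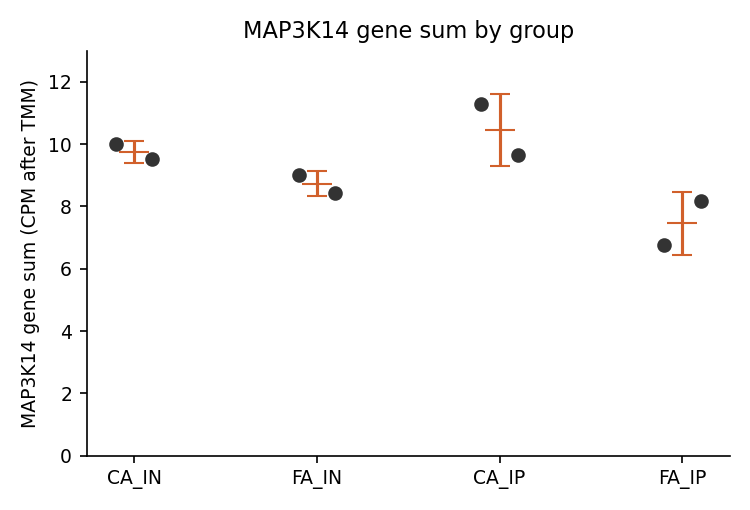
MAP3K14 gene sum in CPM after TMM scaling, one point per library, with the mean and SD (bars) of the 2 libraries in each group. The means lie between 7.46 CPM in FA_IP and 10.5 CPM in CA_IP.

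Whether MAP3K14 RNA as a whole was enriched by the 8-oxoG antibody was tested with edgeR's quasi-likelihood test over 18242 genes, with Benjamini-Hochberg adjustment. In clean air the log2 fold change of CA_IP against CA_IN was 0.10 (SE 0.16, edgeR adjusted p = 0.874). In formaldehyde that of FA_IP against FA_IN was -0.22 (SE 0.17, edgeR adjusted p = 0.843). Neither passed the limit of 0.05. The rule that chose the gene also names its gene sum, so these p-values are not independent of that choice. As a description with no test, the gene sum in FA_IN differed from CA_IN by -0.16 (SE 0.16) and that in FA_IP from CA_IP by -0.49 (SE 0.17) on the log2 scale. In these cell pools, fewer cells that express a gene and less of its RNA per cell cannot be told apart.

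On the TPM scale the comparison of immunoprecipitated and input RNA looks different for most genes. The median tested gene was higher by 0.84 in CA_IP than in CA_IN and by 0.80 in FA_IP than in FA_IN, as log2(TPM + 0.1). MAP3K14 differed by 1.2005 and 0.31 on the same scale, which is 0.36 above that median in clean air and -0.49 relative to it in formaldehyde. Between treatments, MAP3K14 in TPM differed by 0.04 in FA_IN against CA_IN, where the count fit had the opposite sign, and by -0.85 in FA_IP against CA_IP. The median gene differed by -0.05 and -0.11 there.

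MAP3K14-AS1 (ENSG00000267278), a long noncoding RNA gene on the opposite strand at chr17:45247916-45269824, is the only other annotated gene that overlaps MAP3K14. Its exons cover 858 of the 4442 exonic bases (19.3%) that GENCODE 44 gives ENST00000344686. MAP3K14-AS1 had 56.9 and 47.7 expected counts with clean air and 35.7 and 43.6 with formaldehyde in input RNA. It had 32.3 and 37.2 with clean air and 25.7 and 35.1 with formaldehyde in immunoprecipitated RNA. These are 12.1% to 21.0% of the MAP3K14 gene sum of the same library. The counting used no strand option, so strand did not help to tell reads of the 2 genes apart where their exons overlap. How many reads this concerns was not analysed here.

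The tested genes whose level followed the MAP3K14 gene sum most closely over the 8 libraries were BCL11A (Pearson r = 0.96), ENSG00000273374 (0.96), FAM86B3P (0.95), ENSG00000260830 (0.95) and C3orf52 (0.95). They are the 5 highest of 18241 genes, on log2 CPM values that share the same 8 libraries, and are given as a description. FAM86B3P carries the symbol of a pseudogene in a multigene family, so its reads may be shared with its copies.

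Other NF-kappaB pathway genes were looked at from a list of 45 ligands, receptors, regulators, subunits and targets, of which 36 had enough counts to be tested. The list also holds genes of the canonical pathway, such as REL and IKBKG. The 9 others, among them the ligand genes CD40LG and TNFSF11 and the chemokine genes CXCL12, CXCL13, CCL19 and CCL21, had at most 8 counts in any library. In CA_IP against CA_IN, 0 of the 36 were higher and 1 was lower by edgeR at an adjusted p under 0.05, where 0.148% of all tested genes were higher and 1.77% lower. In FA_IP against FA_IN, 0 were higher and 1 was lower, where 0.0329% of all genes were higher and 1.47% lower. In FA_IN against CA_IN and in the interaction of treatment and fraction, 0 of the 36 were called by edgeR and 0 by DESeq2, with 2 and 0 at an unadjusted edgeR p under 0.05 (3.35% and 1.07% of all genes), and edgeR called 0.00548% and 0% of all genes lower and 0% higher in both. In CA_IP against CA_IN and FA_IP against FA_IN, 7 and 4 of the 36 had an unadjusted edgeR p under 0.05, against 12.6% and 9.1% of all genes. The median log2 fold change of the 36 was 0.08 in CA_IP against CA_IN and -0.01 in FA_IP against FA_IN, against 0.02 and 0.00 over all tested genes.

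Since input and immunoprecipitated RNA came from the same pools, the fit with the RNA pool as a block is given beside these counts. It called 7 of the 36 higher and 3 lower in CA_IP against CA_IN, where 11.6% of all genes were higher and 5.85% lower. In FA_IP against FA_IN it called 3 higher and 1 lower, where 5.45% and 4.6% of all genes were, and in the interaction 0, where 0.11% of all genes were higher and 0.0274% lower. With the replicate number as the block, 5 of the 36 were called higher and 1 lower in clean air, against 6.77% and 3.87% of all genes. In formaldehyde 1 was higher and 1 lower, against 2.01% and 3.21% of all genes. MAP3K14 stayed uncalled with the pool as a block, at an edgeR adjusted p of 0.605 in clean air and 0.362 in formaldehyde.

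Of the receptors upstream of NIK, TNFRSF12A (the TWEAK receptor, mean level 66.0 TPM) and LTBR (the lymphotoxin beta receptor, 30.7 TPM) were the highest. LTBR had a log2 fold change of 0.33 (SE 0.08) in CA_IP against CA_IN and 0.22 (SE 0.08) in FA_IP against FA_IN, and TNFRSF12A of 0.29 and 0.19. With the pool as a block LTBR was higher in both treatments (edgeR adjusted p = 0.0014 and 0.035), and TNFRSF12A was higher in clean air (edgeR adjusted p = 0.00587). The ligand genes TNFSF12 (TWEAK, 0.480 TPM) and TNFSF13B (BAFF, 0.356 TPM) were near the lower limit of what was tested.

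Among the regulators of NIK stability, the ubiquitin ligase genes BIRC2 (cIAP1, 8.89 TPM) and ZFP91 (8.01 TPM) were the highest, and neither was called in any comparison with or without the pool as a block. TRAF2, an adaptor of the complex that holds NIK low, had a log2 fold change of 0.40 (SE 0.24) in clean air and 0.53 (SE 0.24) in formaldehyde, and it was called higher in the fit with the pool as a block (edgeR adjusted p = 0.00344 and 0.00109). BIRC3 (cIAP2) was lower in clean air in that fit, at -0.36 (edgeR adjusted p = 0.0281).

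Among the kinases, MAP3K7 (TAK1, 8.06 TPM) and IKBKG (NEMO, the regulatory subunit of the canonical IKK complex, 7.88 TPM) were the highest. IKBKG was called higher with the pool as a block in both treatments, at 0.36 and 0.31 on the log2 scale (edgeR adjusted p = 0.00252 and 0.0193). CHUK, which encodes IKK alpha, the kinase that NIK phosphorylates, was at -0.02 (SE 0.09) in clean air and -0.03 (SE 0.09) in formaldehyde and was called in neither fit.

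SKP1 is a subunit of a ubiquitin ligase that acts in p100 processing. In the fit without a block it was the 1 gene of the list called in both comparisons of immunoprecipitated with input RNA. The CA_IN libraries had 300.4 and 299.98 CPM and the CA_IP libraries 217 and 223. The FA_IN libraries had 323 and 337 CPM and the FA_IP libraries 249 in each. The immunoprecipitated libraries were below the input libraries of both treatments on this scale. The log2 fold change was -0.45 (SE 0.07, edgeR adjusted p = 0.0148) in clean air and -0.41 (SE 0.07, edgeR adjusted p = 0.0298) in formaldehyde. Without any one of the CA_IN or CA_IP libraries the call in clean air was lost (edgeR adjusted p = 0.0738 to 0.1252). The call in formaldehyde was lost without any one of the CA_IN, FA_IN or FA_IP libraries (0.0769 to 0.344). With library size in place of TMM both calls were lost (edgeR adjusted p = 0.0549 in clean air and 0.141 in formaldehyde). The same held on the 4 libraries of each comparison (edgeR adjusted p = 0.0805 and 0.0886). Both calls were kept when edgeR took the shared pool into account (adjusted p = 1.25e-05 and 5.87e-05). Blocking by replicate number kept them too (edgeR adjusted p = 0.00037 and 0.00106), and so did DESeq2 (adjusted p = 0.000211 and 0.00326). In TPM the order was turned, with 151 to 182 in the input and 206 to 233 in the immunoprecipitated libraries, on a scale where the median gene was higher too. CUL1, another subunit of that ligase (7.08 TPM), was not called.

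Of the NF-kappaB subunits, RELA (8.34 TPM) and NFKB2 (which encodes p100, 4.54 TPM) were the highest. NFKB2 was at 0.28 (SE 0.12) in clean air and 0.26 (SE 0.12) in formaldehyde, and RELB, the partner of p52, at 0.30 (SE 0.24) and 0.10 (SE 0.25), with no call. With the pool as a block NFKB2 was called higher and REL, a canonical subunit, lower (-0.36) in clean air. The inhibitor genes NFKBIA (14.6 TPM) and NFKBIB (7.40 TPM) were not called, and with the pool as a block NFKBIB and NFKBIE were called higher in clean air. ICAM1, an adhesion molecule at 6.45 TPM, was the only target on the list that was tested, at 0.02 (SE 0.25) in FA_IN against CA_IN and 0.18 (SE 0.26) in CA_IP against CA_IN, with no call.

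**Figure D5:**
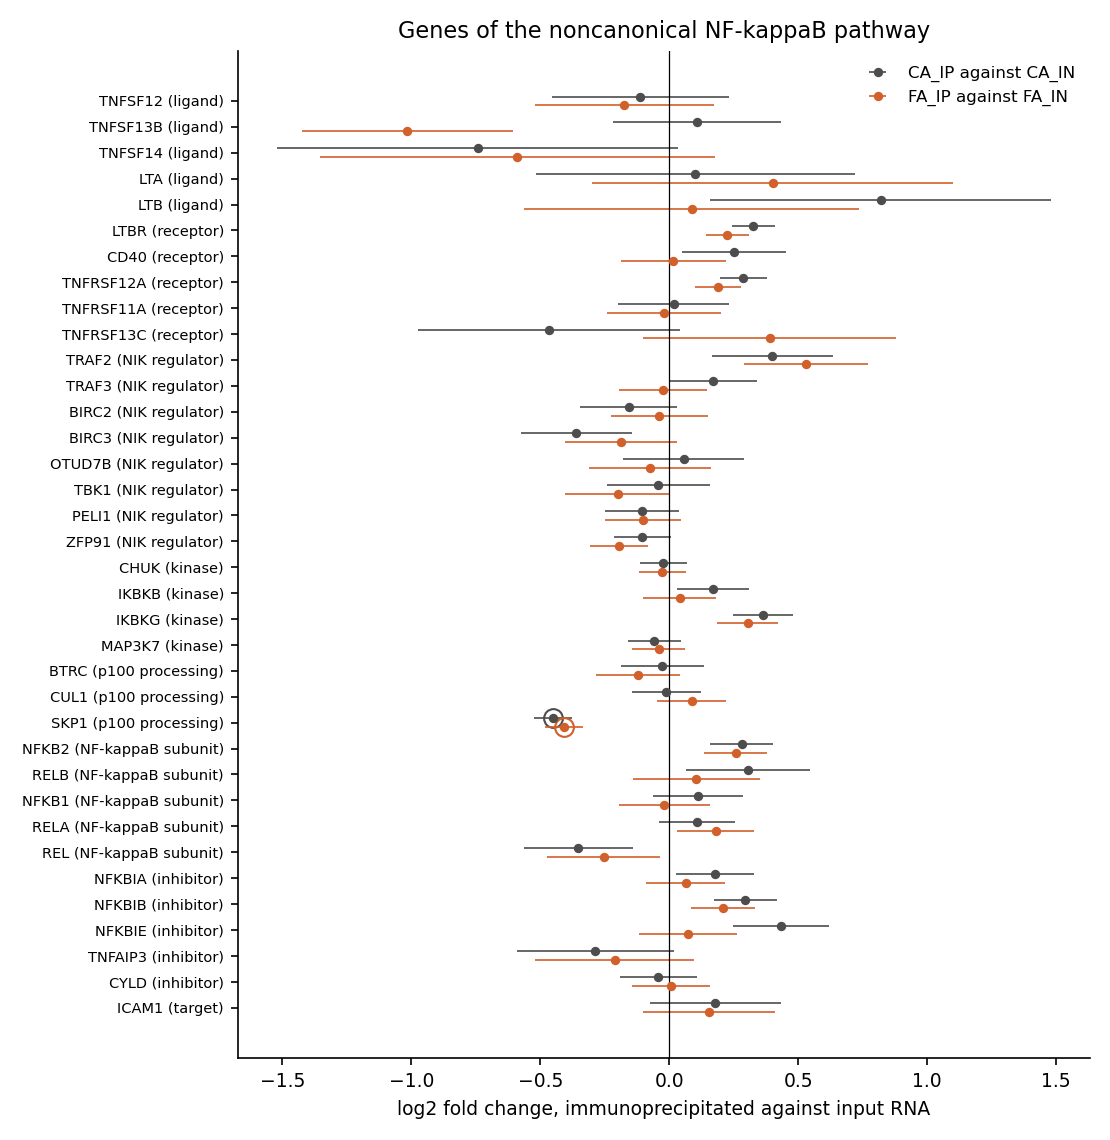
Log2 fold change (points) with its SE (bars) of the 36 tested genes on the pathway list, for CA_IP against CA_IN (grey) and FA_IP against FA_IN (orange), grouped by role. The list holds noncanonical and canonical NF-kappaB genes. Circles mark the genes called by edgeR in the fit without a block, which are SKP1 in both comparisons.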

How the data were processed

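RNA from BEAS-2B cells was sequenced as input and after 8-oxoG immunoprecipitation in 8 libraries, 2 per group. Replicate numbers came from the names of the deposited tables, since the titles give none. The authors trimmed reads with Cutadapt, aligned them with STAR 2.6.0a in a 2-pass mode to GRCh38 with Ensembl annotation, and estimated isoform counts with RSEM 1.2.25 as paired-end data with no strand option. The deposited expected counts and effective lengths of 8 isoform tables were used, and TPM was computed from them as count per effective length, scaled to a fixed total per library. The deposited tables of the authors' own DESeq2 comparisons were not used.

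Expected counts were summed by gene and rounded. Genes with at least 10 counts in at least 2 libraries (18242) were fitted with edgeR 4.0.16 (R 4.3.3) in all 8 libraries, with TMM factors, a prior count of 0.125 and the quasi-likelihood test. P-values were adjusted over all genes with the Benjamini-Hochberg method at a limit of 0.05, and DESeq2 1.42.0 was an alternative. The fit was tested on simulated counts. With 2 libraries per group, p-values of this fit rest on a spread pooled over 4 groups. The fits with a block estimate further terms and leave fewer residual degrees of freedom, the fewest with the RNA pool as the block.

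Isoform shares are percentages of the gene's expected counts. A group at 0 was given 3 counts per library for a fold. Exons and sequences came from GENCODE 44 and GRCh38, and promoter windows from RefSeq. Ensembl identifiers of 2 of the 7 isoforms had no entry there. The named genes were all MAP3K14 isoforms, genes that overlap it, the 5 genes most alike, and in the pathway list every called gene and the 2 highest per role in mean TPM, to which genes called with a block, CHUK and RELB were added after their values were seen. The members and lists were chosen with earlier results of these data known.

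The replicate 1 minus replicate 3 differences of log2 CPM correlated between every pair of groups (0.20 to 0.38 across genes). The study's methods give the split of each RNA pool into input and immunoprecipitated RNA. Counting error is not the only error of an expected count, which also depends on how shared reads were divided. The alternatives were other normalization, filters, prior count, blocks, samples in the fit, and leaving out each library.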

Additional observations from a re-analysis of the deposited data

Results flagged for a closer look

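The shares of the MAP3K14 long isoforms moved in opposite directions with formaldehyde in input and in immunoprecipitated RNA, with every library of a group on its side. ENST00000344686 was 44.3 percentage points higher in FA_IN than in CA_IN and differed by -59.8 points between FA_IP and CA_IP. ENST00000648527 differed by -34.3 points in input RNA and by 76.6 points in immunoprecipitated RNA. The difference between the fractions was not tested, and the gene was chosen for it.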

How the results depend on the processing

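The MAP3K14 gene sum stayed uncalled in both comparisons of immunoprecipitated with input RNA in all 16 alternatives each (adjusted p at least 0.445 and 0.362 by edgeR or DESeq2). Its log2 fold change in clean air ranged from -0.0155 to 0.211 with 1 library left out, and it turned negative without CA_IP replicate 1. The difference in formaldehyde kept its sign in all 16 alternative count fits, and both differences between treatments kept theirs in 14. Those 14 do not include the fit on the 4 libraries of the comparison only or the fit with the RNA pool as a block. On the TPM scale FA_IP against FA_IN was 0.31 and FA_IN against CA_IN 0.04, both of the opposite sign to the fit, and the first of these lay below the median of all genes (-0.49). Per effective length, the shares of the first long isoform differed by 26.2 points in input and -41.3 in immunoprecipitated RNA, and those of the second by -28.2 and 67.4. Among the 4 long isoforms only, chosen after seeing the data, they differed by 54.3 and -75.5, and by -41.6 and 79.8. The planned share among protein-coding isoforms was not run, since 2 isoforms have no annotated type. All 8 share differences above kept their direction. The count of pathway genes called was 1 in clean air and 1 in formaldehyde. In clean air it was 3 with library size in place of TMM. It was 0 and 0 on the 4 libraries of each comparison, 6 and 2 with the replicate block, and 10 and 4 with the RNA pool as a block, and it ranged from 0 to 1 with 1 library left out. The cause was not tested. The blocks changed no call of the MAP3K14 gene sum. Over all genes, the calls in CA_IP against CA_IN were 27 higher and 322 lower with TMM, 821 and 336 with library size, and 2112 and 1067 with the pool as a block. In FA_IP against FA_IN they were 6 and 268, 318 and 243, and 995 and 840. Library size moved the median of all genes from 0.02 to 0.16 in clean air and from 0.00 to 0.17 in formaldehyde. Isoforms with under 100 counts in a library limit the precision of their shares, and 2 libraries per group give no range beyond these values.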
